A study of Danio rerio with 6 samples.

Results

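The genes described here code for proteins that build ribosomes in the nucleolus, and they were followed across whole zebrafish embryos of 72 h after fertilization. ERbeta2 MO embryos had received 50 uM of a morpholino, an antisense oligonucleotide, directed at the estrogen receptor ERbeta2. coMO embryos carried a control morpholino, also at 50 uM. The third group, uninjected, was not injected. All 3 groups came from eggs pooled over several aquaria and raised at 28 °C, and each group was measured on 2 Affymetrix arrays titled as biological replicates. Nothing in the labels says whether the replicates came from separate spawnings, so a p-value measures only the spread between these arrays.

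The genes were chosen from the tables of fold changes that the authors deposited. They are the probe sets that name 1 gene whose current symbol begins with nop, nol, noc, utp, rrp, exosc or polr1, or is among 20 assembly genes listed by name. Where a gene identifier gave no current symbol, the symbol as written was used, and nola2 entered only on that older symbol. This gave 47 probe sets of 43 genes, out of 2331 probe sets of 2152 genes that those tables name singly. The prefixes brought 32 genes, and 11 genes came from the list alone. A probe set stands in these tables only where the authors' fold is at least 2 in either direction, so measured values chose the genes. Of the 47 probe sets, 46 stand in the table of ERbeta2 MO over coMO, 44 in that of ERbeta2 MO over uninjected and 43 in both. None, 0 of 47, stands in the table that compares uninjected with coMO. That table holds only 21 of the 15502 probe sets besides controls, so nothing is read from this 0. Every difference between ERbeta2 MO and the controls below is therefore a description of how the chosen genes look, with no test of them. All 47 probe sets passed the filter on dim signals, a mean of 152.8 over all arrays. The mean of utp3 alone lay under that level on the 4 control arrays, so it passed through its ERbeta2 MO signal.

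Ribosomes are made in the nucleolus. RNA polymerase I copies the ribosomal DNA into a long precursor RNA, and small nucleolar ribonucleoproteins (snoRNPs) guide its chemical modification. Box C/D particles guide methylation and box H/ACA particles guide the conversion of uridine to pseudouridine. The small subunit processome cuts out and folds the precursor of the small subunit, a separate set of factors assembles the large subunit, and the RNA exosome trims or degrades RNA from its 3′ end. Most of these roles were worked out in yeast, and the zebrafish genes are named after their yeast or human counterparts. In zebrafish embryos many of these genes are known to be active in growing tissues such as the eye, the brain and the digestive organs.

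All 47 probe sets had higher signal on both ERbeta2 MO arrays than on any of the 4 control arrays. The median signal of the 47 was 861 and 855 on the ERbeta2 MO arrays, 326 and 308 on the coMO arrays, and 309.9 and 305 on the uninjected arrays. On the log2(signal + 16) scale the median difference of ERbeta2 MO minus coMO was 1.46 (2.75-fold), with the middle 50% of probe sets between 1.14 and 1.71. Against uninjected the median difference was 1.50 (2.82-fold), with the middle 50% between 1.18 and 1.79. Over all 9301 probe sets tested the medians were 0.04 and 0.04. All 47 were called higher in each comparison by limma at an adjusted p of 0.05, where 29.6% of all tested probe sets were called higher against coMO and 30.4% against uninjected. Groups that did not overlap, with ERbeta2 MO higher, were found for 41.8% of all tested probe sets against coMO and 42.1% against uninjected, and both ERbeta2 MO arrays lay above all 4 control arrays for 37.2%. Nothing is read from the members' counts beside these shares, because the same contrasts chose them. None of the 47 was lower in ERbeta2 MO under any of the scalings between arrays that were tried, which follows largely from the same choice. The lowest difference from each control was 0.51, and the scalings that shift a whole array only raised it. These are RNA levels of whole embryos, in which more cells that use a gene and more of its RNA per cell cannot be told apart.

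**Figure D1:**
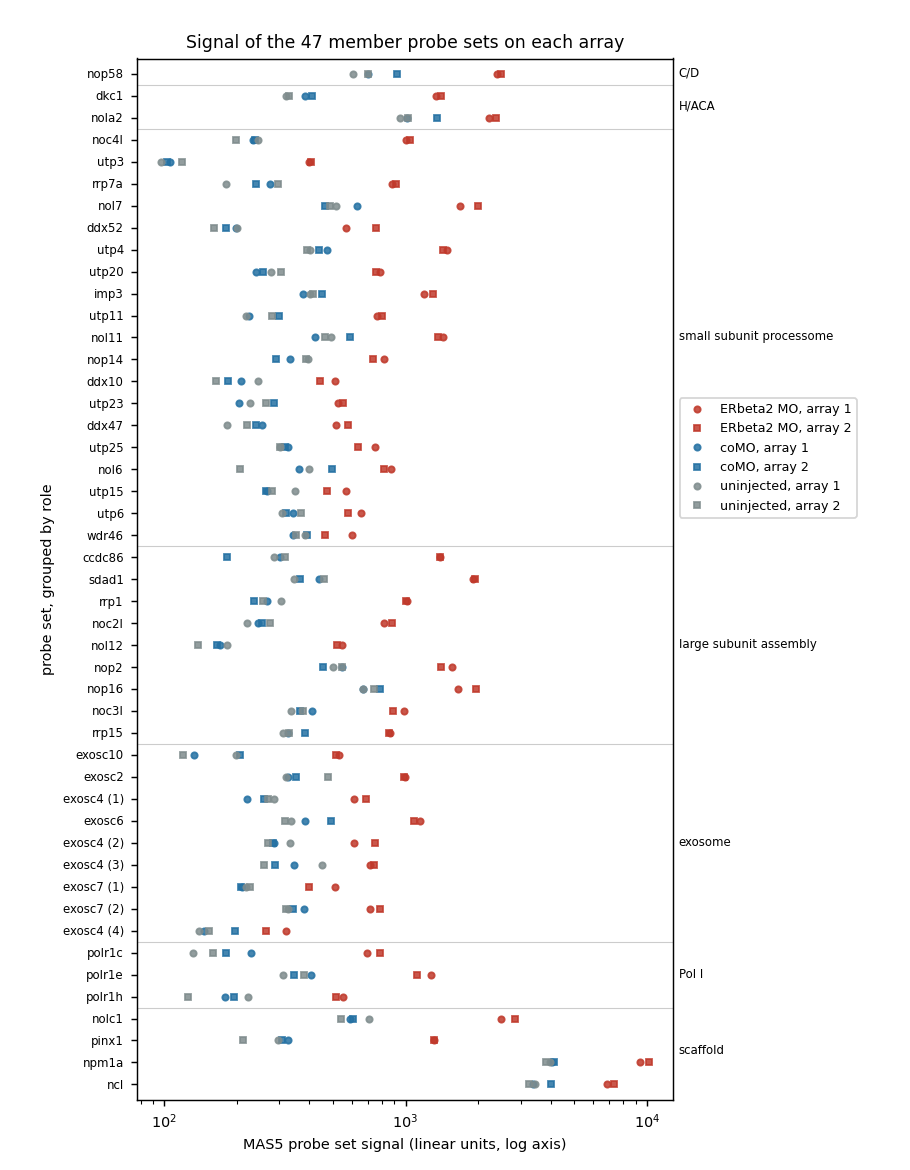
Signal of each probe set (MAS5 linear units on a log axis) on the 2 ERbeta2 MO, 2 coMO and 2 uninjected arrays, grouped by role and ordered by the difference between ERbeta2 MO and coMO. Numbers in brackets tell apart probe sets of 1 gene. For all 47 rows the red points of ERbeta2 MO lie to the right of the 4 control points. Signals of different probe sets are not on a common scale.

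The ERbeta2 MO arrays also stood apart from both controls in markers of differentiated cells. The 12 photoreceptor genes of the marker list were all named in the authors' tables. All 14 tested probe sets of these genes were called lower in ERbeta2 MO by limma against each control, as were 27.3% of all tested probe sets against coMO and 27% against uninjected. The summed signal of the 15 probe sets that name these genes, 1 of them an untested control probe set of the array, was 850 to 884 in ERbeta2 MO, against 100859 to 106925 in coMO and 115778 to 126798 in uninjected embryos. opn1mw1, a cone opsin, had 20.9 and 38.0 in ERbeta2 MO, against 13042 and 13322 in coMO and 14128 and 17311 in uninjected embryos. Of 11 exocrine pancreas genes 9 were named, and all 9 tested probe sets were called lower against each control. The marker probe sets of both lists come from tables cut at 2-fold, so these counts of calls follow largely from that choice. Probe sets of these genes outside the tables were not analysed here. The summed signal of the 10 named probe sets was 699 to 754 in ERbeta2 MO, against 27802 to 30602 in coMO and 28498 to 32225 in uninjected embryos. The arrays' own control for RNA integrity differed as well: the ratio of 3′ to 5′ signal of GAPDH was 2.15 ± 0.00652 in ERbeta2 MO, against 1.50 ± 0.233 in coMO and 1.41 ± 0.0877 in uninjected embryos (SD, n = 2 each), and that of acta1 was 12.6 ± 1.40, against 6.68 ± 1.35 in coMO and 7.72 ± 3.28 in uninjected embryos (SD, n = 2 each). None of these marker probe sets had a signal of 0 on any array. The part of these markers and of the RNA ratio in the differences of the assembly genes was not tested, and neither was that of dividing cells, whose named genes are given further on.

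Among the chosen genes, the snoRNPs were represented by 3. Other snoRNP genes that the rule on symbols did not take are counted among the other assembly factors further on. nop58, a core protein of the box C/D particles, had signals of 2401 and 2484 on the ERbeta2 MO arrays, against 699 and 921 on the coMO arrays and 607 and 696 on the uninjected arrays. dkc1, the pseudouridine synthase of the box H/ACA particles, had 1337 and 1405 in ERbeta2 MO, against 384 and 411 in coMO and 321 and 329 in uninjected embryos. nola2, which the reference table gives as an older name of nhp2, a core H/ACA protein, had 2224 and 2360.0 in ERbeta2 MO, against 1010.3 and 1345 in coMO and 949 and 1020.1 in uninjected embryos. In each of the 3 genes the ERbeta2 MO arrays were high and did not overlap with either control, as for 37.2% of all tested probe sets. The log2 difference from coMO was 1.59 for nop58, 1.75 for dkc1 and 0.97 for nola2, and that from uninjected was 1.88, 2.02 and 1.21. The 2 H/ACA genes, partners in 1 particle, thus stood at 3.36-fold and 1.95-fold over coMO.

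The small subunit processome was the role with the most genes, 19 genes with 1 probe set each. Its median difference was 1.46 against coMO, over a range of 0.51 to 2.05, and 1.50 against uninjected, over a range of 0.51 to 2.14. noc4l, which in yeast works with nop14 in the maturation and export of the small subunit, had 1005 and 1046 in ERbeta2 MO, against 234 and 238 in coMO and 244 and 199 in uninjected embryos. utp3, the counterpart of yeast Sas10, had 399.9 and 408 in ERbeta2 MO, against 105 and 103 in coMO and 96.9 and 119 in uninjected embryos. rrp7a, a small subunit assembly factor, had 877 and 912 in ERbeta2 MO, against 275 and 239 in coMO and 181 and 297 in uninjected embryos. These 3 genes and nol7 led the processome against coMO, with log2 differences of 2.05, 1.81, 1.74 and 1.73. nol7, a nucleolar protein of small subunit assembly, had 1681 and 2002 in ERbeta2 MO, against 631 and 463 in coMO and 516 and 487 in uninjected embryos.

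Within the processome, the genes of the early complex that binds the precursor RNA first were spread over the range. utp4 and nol11, both of the complex also called t-UTP, stood 1.64 and 1.46 above coMO and 1.84 and 1.52 above uninjected. utp15, of the same complex, stood 0.93 and 0.71 above them: its signals were 569 and 473 in ERbeta2 MO, against 267 and 264 in coMO and 348 and 279 in uninjected embryos. The 3 RNA helicases ddx52, ddx10 and ddx47 differed by 1.71, 1.21 and 1.10 from coMO and by 1.78, 1.18 and 1.38 from uninjected. imp3, a protein that joins the U3 snoRNA to the precursor, differed by 1.56 and 1.57. utp20, a large scaffold protein, differed by 1.57 and 1.36, and utp11 by 1.52 and 1.59. nop14, utp25 and utp23, further proteins of the processome, differed by 1.28, 1.06 and 1.11 from coMO and by 0.96, 1.15 and 1.09 from uninjected.

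The smallest differences of all 47 probe sets were those of wdr46, a scaffold protein and the counterpart of yeast Utp7. Its signals were 601 and 464 in ERbeta2 MO, against 343 and 391 in coMO and 382 and 350.5 in uninjected embryos. Both ERbeta2 MO arrays lay above all 4 control arrays, as for 37.2% of all tested probe sets. However, the lower ERbeta2 MO array lay closer to the highest control array than to the other ERbeta2 MO array. The log2 difference was 0.51 ± 0.17 (standard error) against coMO and 0.51 ± 0.17 against uninjected. Without the first ERbeta2 MO array it was 0.33 and 0.33, no longer past the threshold in limma. It was not past it either without the first coMO array, at 0.42, or without the second uninjected array, at 0.45. utp6, a subunit of a processome complex that in yeast is called UTP-B, stood 0.86 above coMO and 0.84 above uninjected, with 655 and 575 in ERbeta2 MO, against 341 and 319 in coMO and 306 and 368 in uninjected embryos.

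Large subunit assembly held 9 genes, with a median difference of 1.58 against coMO, over a range of 1.24 to 2.48, and of 1.65 against uninjected, over a range of 1.34 to 2.22. ccdc86, the counterpart of yeast Cgr1, had 1386 and 1385 in ERbeta2 MO, against 303 and 181 in coMO and 285 and 317 in uninjected embryos. It had the largest difference from coMO of all 47 probe sets, 2.48 ± 0.19 on the log2 scale (5.59-fold), and 2.15 against uninjected. Its coMO arrays differed from each other by 0.69, the widest gap between coMO replicates, and the second coMO array was the low one. sdad1, the counterpart of yeast Sda1, had 1911 and 1931 in ERbeta2 MO, against 436 and 365 in coMO and 345 and 460.5 in uninjected embryos. Its difference was 2.22 against both controls. rrp1, an early factor of the large subunit, had 1013 and 1008 in ERbeta2 MO, against 267 and 236 in coMO and 304 and 256 in uninjected embryos.

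noc2l had 811 and 882 in ERbeta2 MO, against 245 and 253 in coMO and 220.3 and 275 in uninjected embryos. Its yeast counterpart pairs with that of noc3l while the subunit moves out of the nucleolus. Against coMO the log2 difference was 1.94 for rrp1, 1.70 for noc2l and 1.24 for noc3l, and against uninjected it was 1.80, 1.72 and 1.37. nop2, a methyltransferase of the large subunit RNA, differed by 1.54 and 1.47. The assembly factors nol12, nop16 and rrp15 differed by 1.58, 1.30 and 1.24 from coMO and by 1.65, 1.34 and 1.38 from uninjected. The lowest difference of the 9 genes in either comparison was 1.24, that of rrp15 from coMO.

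The RNA exosome was represented by 5 genes on 9 probe sets. Its median difference was 1.20 against coMO, over a range of 0.73 to 1.56, and 1.18 against uninjected, over a range of 0.92 to 1.73. exosc10, the nuclear catalytic subunit, had 530.5 and 514 in ERbeta2 MO, against 133 and 206 in coMO and 199 and 120.0 in uninjected embryos. exosc2, of the cap that RNA enters through, had 996 and 989.7 in ERbeta2 MO, against 326 and 351 in coMO and 319 and 476 in uninjected embryos. exosc6, of the ring that forms the barrel, had 1148 and 1087 in ERbeta2 MO, against 383 and 491 in coMO and 334 and 315 in uninjected embryos. For these 3 genes both ERbeta2 MO arrays lay above all 4 control arrays, as for 37.2% of all tested probe sets. Their log2 difference was 1.56, 1.51 and 1.33 against coMO and 1.65, 1.31 and 1.73 against uninjected.

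exosc4, another ring subunit, was read by 4 probe sets, and they gave unequal sizes. The log2 difference from coMO was 1.37, 1.20, 1.16 and 0.73, and from uninjected it was 1.18, 1.14, 1.05 and 0.92 in the same order of probe sets. The highest of these had 609.7 and 685 in ERbeta2 MO, against 221 and 259 in coMO and 284 and 269 in uninjected embryos. The lowest had 321 and 264 in ERbeta2 MO, against 147 and 196 in coMO and 139 and 153 in uninjected embryos. Both of these probe sets carry the suffix that Affymetrix gives to probes that may also bind other transcripts, as does the only probe set of ddx52. The difference of the lowest from coMO was 0.59 without the first ERbeta2 MO array and 0.53 without the first coMO array, and neither passed the threshold. The 2 probe sets of exosc7, also of the ring, gave 1.05 and 1.02 against coMO and 0.97 and 1.18 against uninjected. With 1 probe set for each gene, that of highest mean signal, the median over the 43 genes was 1.52 against coMO and 1.57 against uninjected.

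RNA polymerase I was represented by 3 subunit genes. polr1c, a subunit shared with RNA polymerase III, had 693 and 782 in ERbeta2 MO, against 229 and 181 in coMO and 131 and 159 in uninjected embryos. polr1e, a subunit that takes part in initiation, had 1278 and 1111 in ERbeta2 MO, against 406 and 345 in coMO and 309.9 and 379 in uninjected embryos. polr1h, the counterpart of the yeast subunit that cleaves RNA in a paused enzyme, had 552 and 513 in ERbeta2 MO, against 178 and 194 in coMO and 222 and 125 in uninjected embryos. In all 3 genes both ERbeta2 MO arrays lay above all 4 control arrays, as for 37.2% of all tested probe sets. The log2 difference was 1.78, 1.63 and 1.44 against coMO and 2.23, 1.75 and 1.58 against uninjected.

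The nucleolar chaperones and scaffold proteins were 4 genes with a median difference of 1.63 against coMO and 1.70 against uninjected. nolc1, a phosphoprotein that binds snoRNPs, had 2498 and 2848 in ERbeta2 MO, against 589 and 606 in coMO and 703 and 539 in uninjected embryos. pinx1, known in human cells as an inhibitor of telomerase and in yeast as an assembly factor, had 1311 and 1311 in ERbeta2 MO, against 325 and 308 in coMO and 296 and 213 in uninjected embryos. Its log2 difference from uninjected, 2.31 (4.97-fold), was the largest of the 47 in that comparison, and that from coMO was 2.00. The difference of nolc1 was 2.13 against coMO and 2.09 against uninjected.

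npm1a codes for nucleophosmin, a histone chaperone that makes up much of the nucleolus. It had 9328 and 10203 in ERbeta2 MO, against 4026 and 4110.4 in coMO and 3979 and 3814 in uninjected embryos. ncl codes for nucleolin, an RNA-binding protein of the same compartment, and had 6865 and 7312 in ERbeta2 MO, against 3384 and 4014 in coMO and 3424 and 3250.4 in uninjected embryos. Both genes were high on the ERbeta2 MO arrays, and their log2 differences, 1.26 and 0.94 against coMO and 1.32 and 1.08 against uninjected, lay below the group's medians.

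Side by side, the median difference from coMO was 1.63 for RNA polymerase I, 1.63 for the scaffold proteins, 1.59 for the 1 box C/D gene, 1.58 for large subunit assembly, 1.46 for the small subunit processome, 1.36 for the H/ACA genes and 1.20 for the exosome. Against uninjected the medians were 1.75, 1.70, 1.88, 1.65, 1.50, 1.61 and 1.18 in the same order of roles. Over probe sets, the exosome had the lowest median in both comparisons, and its range overlapped with that of every other role that has more than 1 gene. Its 9 probe sets hold 4 of exosc4 and 2 of exosc7, whereas the other roles have 1 per gene. On the probe set of highest mean signal, exosc10, exosc2, exosc6, exosc4 and exosc7 differed by 1.56, 1.51, 1.33, 1.16 and 1.02 from coMO. From uninjected they differed by 1.65, 1.31, 1.73, 1.05 and 1.18. These are descriptions of selected genes, and the differences between roles were not tested.

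**Figure D2:**
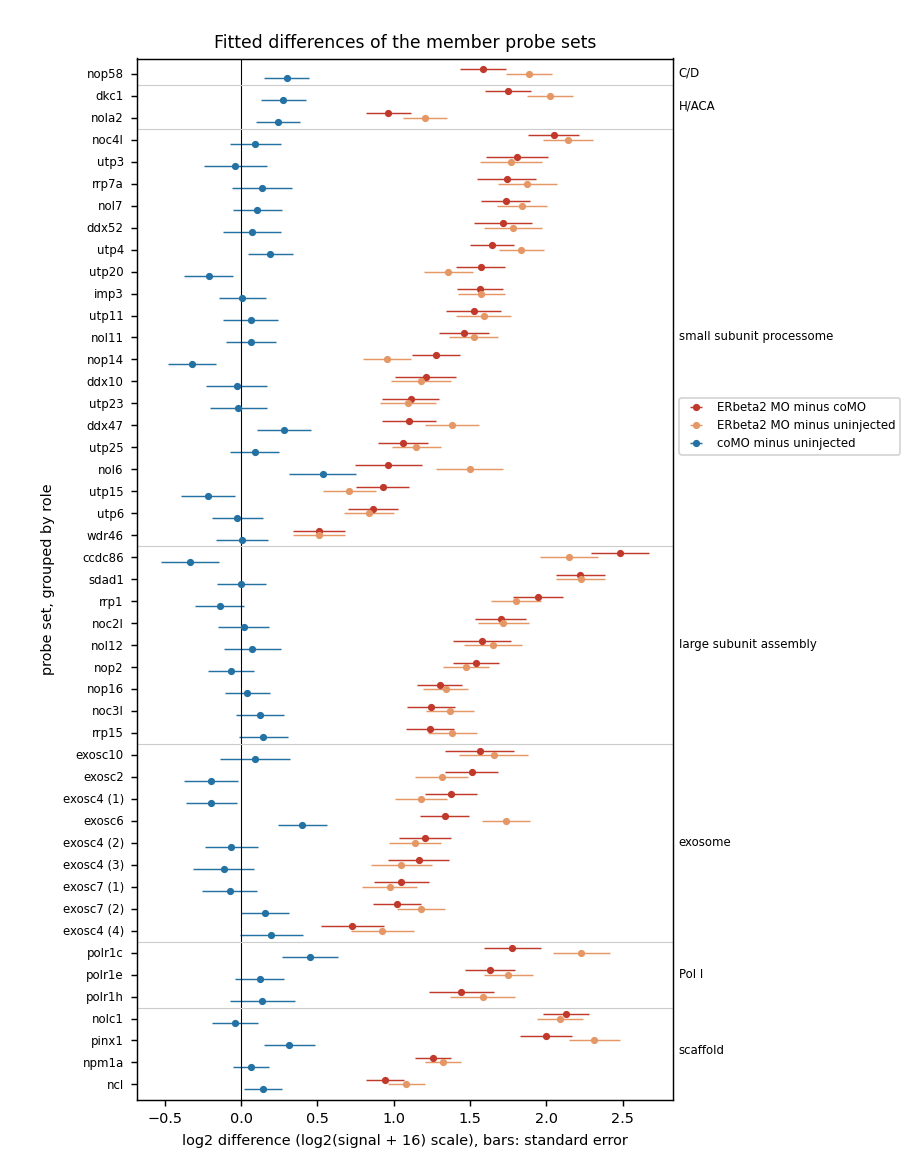
Fitted log2 differences of each probe set, on the log2(signal + 16) scale, with standard errors from limma, for ERbeta2 MO minus coMO, ERbeta2 MO minus uninjected and coMO minus uninjected. Differences of ERbeta2 MO from either control lie between 0.51 and 2.48, and those of coMO from uninjected between -0.34 and 0.53.

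The comparison of coMO with uninjected embryos asks what an injection with a control morpholino did to the same genes. It was not used to choose any of them, although its arrays are the controls of the contrasts that did. The median log2 difference of the 47 probe sets was 0.06 (coMO minus uninjected), over a range of -0.34 to 0.53, and 31 lay above 0 and 16 below. limma called 0 of the 47, with a smallest adjusted p of 0.470, and 3 had an unadjusted p under 0.05. Among all tested probe sets 0.484% were called and 7.78% had an unadjusted p under 0.05. Of the 47, 80.9% lay within 0.25 of 0, against 80.1% of all tested. The direction depends on the scaling: 26 of the 47 lay below 0 when arrays were scaled on the hybridization controls and 42 when scaled on the poly-A spikes, and none was called under either.

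The 3 largest differences between these groups belonged to nol6, polr1c and exosc6. nol6, the counterpart of yeast Utp22, had 869 and 812 in ERbeta2 MO, 360.4 and 496 in coMO and 396 and 207 in uninjected embryos. The coMO and uninjected arrays of nol6 overlapped, and the 2 uninjected arrays differed by 0.89, the widest gap between uninjected replicates. The log2 difference of coMO minus uninjected was 0.53 ± 0.22 (standard error) for nol6, 0.45 ± 0.19 for polr1c and 0.40 ± 0.16 for exosc6, with limma's adjusted p of 0.512, 0.506 and 0.470. polr1c was lower on both uninjected arrays than on both coMO arrays, and so was exosc6. The 3 genes were picked for the size of the difference between coMO and uninjected, so such a separation follows in part from that choice. Its share over all tested probe sets was not counted. For these genes the distance of ERbeta2 MO from uninjected was thus larger than that from coMO: 1.50 and 0.96 for nol6, 2.23 and 1.78 for polr1c, 1.73 and 1.33 for exosc6. The opposite held for ccdc86 and nop14, the lowest of the 47, with coMO minus uninjected at -0.34 and -0.32.

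**Figure D3:**
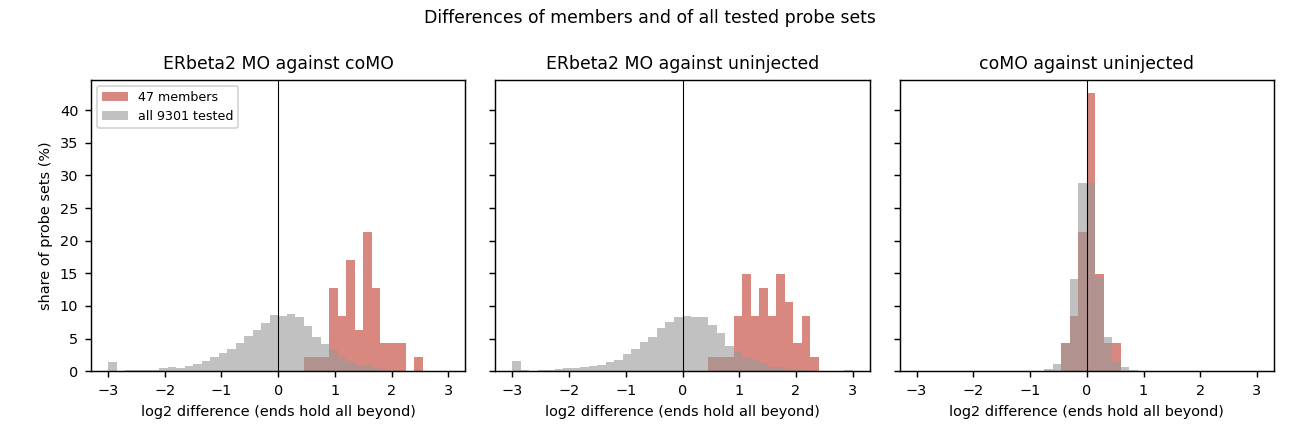
Share of probe sets (%) by log2 difference in the 3 comparisons, for the 47 chosen probe sets and for all 9301 tested. The medians of the 47 are 1.46, 1.50 and 0.06, and those of all tested are 0.04, 0.04 and 0.00.

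Replicates lay close together. The median gap between the 2 arrays of a group over the 47 probe sets on the log2 scale was 0.10 for ERbeta2 MO, 0.18 for coMO and 0.21 for uninjected embryos. The widest gap in ERbeta2 MO, 0.40, belonged to ddx52, with 569 and 757 in ERbeta2 MO, against 199 and 179.6 in coMO and 199.7 and 161 in uninjected embryos. No array was high for all genes: the second array exceeded the first for 24 of 47 probe sets with ERbeta2 MO, 23 with coMO and 23 among uninjected embryos. The genes are not neighbours in the genome. Of the 43, 42 were placed by the reference gene table, on 20 chromosomes, with 0 pairs of adjacent genes among them.

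The authors' fold and the ratio of their own mean signals are different quantities. In the authors' deposited table the fold of the members over coMO ran between 2.03 and 5.82 with a median of 3.12, and that over uninjected between 2.21 and 6.45 with a median of 3.25. The authors' deposited fold exceeded the ratio of mean signals for 39 of 46 members over coMO and 38 of 44 over uninjected. Over all 46 and 44 members the median of fold divided by signal ratio was 1.19 and 1.18. The fold was the larger for 86.1% and 84.1% of all probe sets that are higher in these tables, over which that median was 1.20 and 1.19. sdad1 had the highest fold in both tables, 5.82 and 6.45. ddx52 stood furthest the other way, with 2.15 in the authors' deposited table over coMO and a signal ratio of 3.51. ddx47 had an authors' deposited fold of 3.79 and a signal ratio of 2.22.

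The members nearest to the authors' limit of 2 show what the choice of genes rests on. Just inside it, in the authors' deposited table over coMO, were wdr46 at 2.03, utp23 at 2.13 and ddx52 at 2.15, and the signal ratio of wdr46 was 1.45. In the authors' deposited table over uninjected the nearest were exosc7 at 2.21 and both ncl and utp15 at 2.34. utp23, utp6 and wdr46 do not stand in that table, and their signal ratios over uninjected were 2.20, 1.82 and 1.45. utp23 had 527 and 551 in ERbeta2 MO, against 204 and 285 in coMO and 226 and 264 in uninjected embryos. The exosc4 probe set missing from the table over coMO had a signal ratio of 1.71 there. The exosc7 probe set nearest to the limit had 509 and 399 in ERbeta2 MO, against 210.4 and 209 in coMO and 217 and 227 in uninjected embryos. By the fit, 40 of the 47 were at least 2-fold higher than coMO, beside 8.03% of all tested probe sets, and 41 were at least 2-fold higher than uninjected, beside 8.6%. The members' counts follow largely from the authors' limit of 2 on the same arrays, so nothing is read from them beside these shares.

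**Figure D4:**
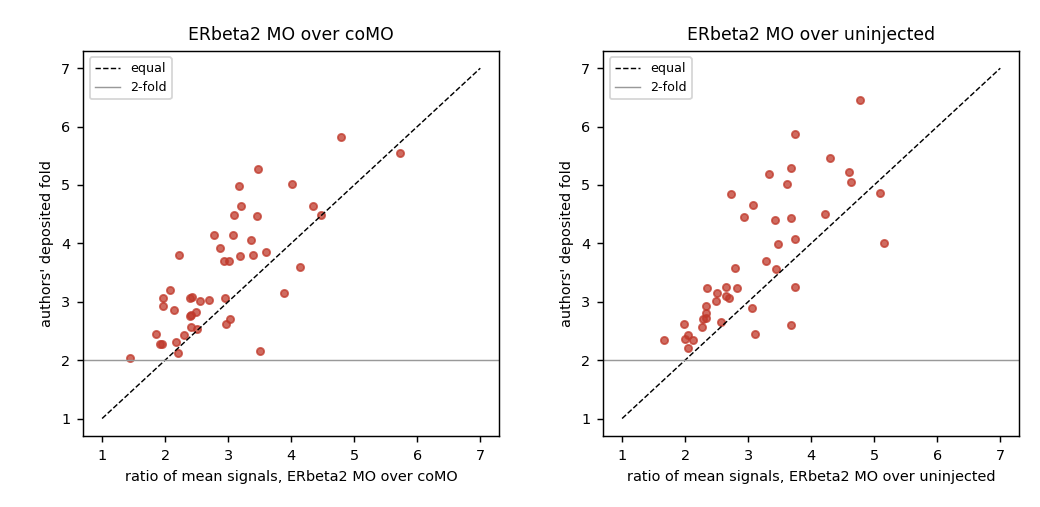
The authors' deposited fold against the ratio of mean signals for ERbeta2 MO over coMO (46 probe sets) and over uninjected (44), with the line of equality dashed and the limit of 2 in grey. Most points lie above the dashed line, 39 of 46 and 38 of 44.

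Other genes of the pathway, from a list of 99 assembly factors outside the chosen families, were named in the authors' tables for 43 genes on 47 probe sets, 46 of which passed the filter. With no filter, limma called all 47 higher against coMO and against uninjected, with median differences of 1.33 and 1.47, where 18% and 18.8% of all probe sets were called higher. These names too come from tables cut at 2-fold, so the count is not independent evidence, and factors outside the tables were not analysed here. 5 of the 46 probe sets, those of nufip1, wdr74, ddx54 and mak16 and 1 of imp4, had a mean under the filter level on the 4 control arrays and passed through their ERbeta2 MO signal. They are named after their values were seen. nufip1, which helps to assemble box C/D particles, had 343 and 311 in ERbeta2 MO, against 104 and 42.9 in coMO and 136 and 88.1 in uninjected embryos. gnl3l, a nucleolar GTPase, had 1318 and 1509 in ERbeta2 MO, against 387 and 322 in coMO and 321 and 324 in uninjected embryos. ddx27 and pes, both of large subunit assembly, followed with differences of 1.86 and 1.86 from coMO and 1.73 and 1.78 from uninjected. With no filter, none of the 47 was called between coMO and uninjected, where their median difference was 0.11. Over all 15502 probe sets limma called only 10 higher and 11 lower there, so nothing is read from that count. The summed signal of the 47 probe sets of other assembly factors was 46881 to 47013 in ERbeta2 MO, against 17812 to 17947 in coMO and 16533 to 17099 in uninjected embryos.

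Of 21 genes for subunits of RNA polymerases II and III, 4 were named, and all 4 belong to RNA polymerase III, which makes the smallest ribosomal RNA and the transfer RNAs. limma called all 4 higher in both comparisons, beside 29.6% of all tested probe sets against coMO and 30.4% against uninjected. They are named because they passed the authors' limit of 2-fold, so the count follows largely from that choice. Subunit genes outside the tables were not analysed here, so the names give no contrast between RNA polymerases II and III. The differences of polr3e, polr3k, polr3f and polr3d were 1.47, 1.20, 0.77 and 0.66 against coMO and 1.63, 1.07, 0.76 and 0.74 against uninjected. Of 11 genes of the myc family and its partners, transcription factors known to drive genes of ribosome assembly, 3 were named on 4 probe sets. The same limit of 2-fold chose these 4, and all were called higher in both comparisons, beside the same 29.6% and 30.4%. mycn had 1793 and 1955 in ERbeta2 MO, against 759 and 554 in coMO and 734 and 728 in uninjected embryos on its first probe set, with a difference of 1.51 from coMO, and the second probe set gave 0.93. mycb stood 1.28 and mycla 0.91 above coMO. Genes of the myc list outside the tables were not analysed here either.

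Named genes of dividing cells were lower. Of 20 such genes, 4 were named in the tables on 5 probe sets, and 1 probe set, of top2a, passed the filter. The same limit of 2-fold chose these 5, so the counts of calls follow largely from that choice. The genes of the list outside the tables were not analysed here. top2a, which untangles DNA before cell division, had 88.1 and 45.7 in ERbeta2 MO, against 181 and 179.7 in coMO and 221 and 302 in uninjected embryos, a difference of -1.29 from coMO and -1.77 from uninjected (limma, adjusted p of 0.000189 against coMO). With no filter, limma called all 5 probe sets lower against coMO, with a median of -1.45, beside 22.8% of all probe sets, and 4 of 5 lower against uninjected, with a median of -1.77, beside 20.9%. Their summed signal was 218 to 251 in ERbeta2 MO, against 736 to 768 in coMO and 772 to 932 in uninjected embryos. These sizes hold for the signals as deposited. Scaling on the poly-A spikes moved the median of all tested probe sets from 0.04 to 0.90 against coMO and from 0.04 to 0.61 against uninjected. It shifts all probe sets of an array alike, so these 5 would be less low under it. The least low of them against uninjected stood at -0.63 with no filter, close to the size of that shift. mcm3 and mcm6, of the helicase that opens DNA for replication, and mki67, a nuclear protein of cycling cells, had signals between 35.8 and 62.2 in ERbeta2 MO, between 123 and 197 in coMO and between 83.8 and 231 in uninjected embryos.

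**Figure D5:**
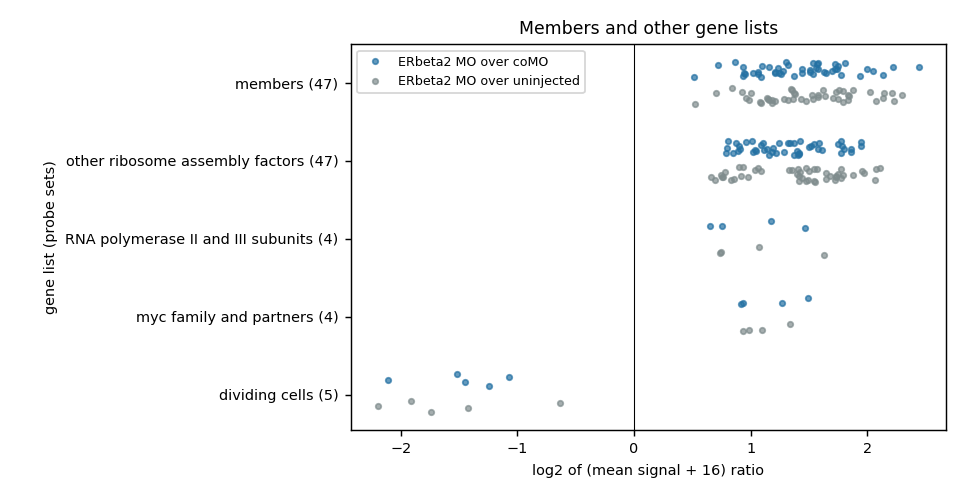
log2 ratio of (mean signal + 16) for ERbeta2 MO over coMO and over uninjected, for the 47 chosen probe sets and for the named probe sets of 4 other gene lists. All points of the assembly, polymerase and myc lists lie above 0, and those of dividing cells lie below it.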

How the data were processed

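Probe set signals are MAS5 intensity values per the submitters' processing notes, as deposited by the authors on a linear scale, with trimmed means of 496 to 498 on each array. The authors also deposited 3 tables of fold, a linear ratio between group pairs, with no value between 0.5 and 2. The method behind these folds is not given in the sources used here. Fold and signals had the same sign for 2651 of 2652 probe sets over coMO and 2714 of 2716 over uninjected. Columns of values with no sample numbered 0.

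Current symbols came by gene identifier from a reference gene table for 44 of the 47 probe sets, and the tables' own symbol was kept for 3 (dkc1, ncl, nola2). 1 probe set that names several genes was left out. The genes, the other gene lists and the rule for naming genes were chosen with earlier results of these data known. Signals on every array are given for up to 4 probe sets of each role with the largest difference from coMO, for the 3 with the largest difference between coMO and uninjected, and for those nearest to a fold of 2; other lists name up to 4 by the difference from coMO.

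log2(signal + 16) was taken. The 115 control probe sets and the lowest 40% of 15502 others were left out. limma 3.58.1 in R 4.3.3 (lmFit, eBayes with a trend) was fitted on all 6 arrays (residual degrees of freedom: 3) and Benjamini-Hochberg adjustment over 9301 probe sets at 0.05, after a test on simulated data. The number of arrays limits the precision. No replicate block was used. Promoters and proteins of the genes were not analysed here. Alternatives changed the offset, filter, scaling, prior, arrays in the fit, replicate block, probe sets per gene and single arrays.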

Additional observations from a re-analysis of the deposited data

How the results depend on the processing

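All 47 probe sets were called higher in both comparisons under each alternative that kept all 47 and 2 arrays in each group. With the lowest 60% left out, 40 were tested and called, beside 35.1% of all tested probe sets against coMO and 35.7% against uninjected. With 1 probe set per gene, 43 of 43 were called, beside 29.6% and 30.4%. With no filter the shares over all were 18% and 18.8%. Median centring, hybridization control scaling and poly-A spike scaling gave shares of 39.1%, 51.3% and 67.7% against coMO. Against uninjected they gave 38%, 46.5% and 51.2%. The same contrasts chose the members, so nothing is read from their counts. In fits without a single array, which leave 1 array in a group, only wdr46 and 1 exosc4 probe set fell short of the threshold. The median difference from coMO was 1.34 with log2(signal + 64), 1.62 with median centring, 1.91 with hybridization control scaling, 2.32 with poly-A spike scaling and 1.52 with 1 probe set per gene, and 1.33 to 1.50 with single arrays left out. From uninjected it was 1.55 with log2(signal + 1), 1.36 with log2(signal + 64), 1.42 with quantile normalization, 1.63, 1.87 and 2.06 with those 3 scalings and 1.57 with 1 probe set per gene, and 1.45 to 1.55 with single arrays left out. These scalings moved the median of all tested probe sets to 0.21, 0.50 and 0.90 against coMO and to 0.18, 0.41 and 0.61 against uninjected. Each scaling shifts every probe set of an array by the same amount. Relative to that median the members therefore stood at 1.42 and 1.45 under each by construction. The calls over all probe sets were 2750 higher and 2539 lower against coMO, beside 3640 and 1980, 4771 and 1073, and 6298 and 491 under those scalings, and 2794 and 3539 with no filter. Against uninjected they were 2831 and 2514, beside 3531 and 2040, 4325 and 1176, and 4762 and 739. For coMO against uninjected the members' median was -0.017 and -0.23 with the hybridization and poly-A scalings. There 45 probe sets were called in all, and 21 with no filter, 16 and 19 with those 2 scalings, 12 with no trend and 88 with a replicate block, which changed no call of a member in any comparison; single arrays left out gave 9 to 36, with 16 without the first coMO array, 9 without the second and 12 without the second uninjected array. Samples share replicate numbers, with correlations of 0.0123 to 0.122 between same-numbered deviations. With only 2 arrays in each group, these correlations cannot show whether the arrays are paired. The causes were not tested.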
